A study of Mus musculus with 4 samples.

Results

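The genes described here are 10 immediate early and AP-1 genes, Fos, Fosl2, Jun, Junb, Jund, Atf3, Maff, Btg2, Klf2 and Klf6, taken by gene name from a table of 24473 genes with FPKM values (fragment counts scaled to transcript length and library depth). All 10 were found, and all 10 were expressed enough to be among the 15733 genes tested. RNA sequencing was done on 4 libraries of BV-2, an immortalised mouse microglial line, and every library came from cells given lipopolysaccharide (LPS, a bacterial cell wall component) at 100 ng/mL for 24 h. The control group held 2 libraries with the genotype label WT, titled sh c1 and sh c2, and the knockdown group 2 libraries with the genotype label SIX2 knockdown, titled sh s1 and sh s2. SIX2 is a homeobox transcription factor. The hairpin sequence, any control hairpin, and whether the cells were pools or single clones are not given in the sources used here. Cells without LPS and other times were not analysed here, so the levels below are those a day after the stimulus and not the early burst for which these genes are named.

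Immediate early genes are switched on within minutes of a stimulus without new protein synthesis, and most of their transcripts are then degraded quickly. Several encode parts of AP-1, a transcription factor made of paired basic leucine zipper (bZIP) proteins: Jun proteins pair with one another, with Fos proteins or with ATF proteins, and Fos proteins need a Jun partner to bind DNA. In macrophages and microglia, LPS signals through TLR4 and MAP kinases to these genes, and AP-1 acts beside NF-kappaB on cytokine and protease genes.

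Library totals lay between 60956299 and 75672836 deposited counts. A sequenced fragment was taken as 4 of these counts, an assumption drawn from low values as described under the processing below. On that assumption the least abundant member, Klf2, rested on about 34.5 to 77 fragments per library and the most abundant, Jund, on about 1780 to 2480. The targeted gene, Six2, had a count of 0 in all 4 libraries. On the same assumption this allows up to 12 counts (3 fragments), or 0.159 to 0.197 CPM (counts scaled to library depth), for counting error only. The labels could therefore not be checked on it. Of 10 microglia and macrophage markers, all 10 were detected in all libraries, with a summed level of 2433 and 2505 CPM (control) and 2191 and 2139 CPM (knockdown). Markers of neurons, oligodendrocytes and astrocytes were at trace level, and their sums were lower in the knockdown group. The 5 neuronal markers summed to 6.18 and 5.71 CPM in control, 3.16 CPM in knockdown replicate 1 and 0 in knockdown replicate 2. In knockdown replicate 2, Rbfox3, Syt1, Snap25, Tubb3 and Map2 were all at 0. The 5 oligodendrocyte markers summed to 15.2 and 14.4, then 8.16 and 0.311 CPM, with Mog, Olig1 and Olig2 at 0 in knockdown replicate 2 and Olig2 also at 0 in control replicate 2. The 5 astrocyte markers summed to 5.17 and 4.13, then 2.32 and 0.700 CPM, with Aqp4 and Slc1a3 at 0 in knockdown replicate 2 and Aldh1l1 at 0 in knockdown replicate 1. Single markers did not all follow the sums. Aldh1l1 had 4 and 8 counts in control, then 0 and 21 in knockdown libraries. Rbfox3 had 22 and 4, then 27 and 0, and Mog 8 and 8, then 16 and 0. Among those tested, the log2 fold change was below 0 for 4 of 4 astrocyte, 4 of 5 neuronal and 3 of 3 oligodendrocyte markers. None of those tested passed an unadjusted p of 0.05 in edgeR, where 14.2% of all genes did. Fibroblast markers and T and B cell markers each summed to under 1 CPM, and the 5 endothelial markers to 214 to 227 CPM, nearly all of it Kdr. Of the other endothelial markers, Pecam1 and Cdh5 were under 1 CPM in every library, and Cldn5 and Tek were too low to be tested and at 0 in control replicate 1 and knockdown replicate 2. Nothing in the labels says that the libraries of a group came from separate cultures, so the p-values below rest on a library-to-library spread that may be technical only. In bulk RNA, fewer cells of a type and less RNA per cell cannot be told apart, and where the trace transcripts came from was not tested.

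On the per-length FPKM scale the members covered a wide range. Jund stood highest at 64.9 ± 4.94 FPKM (SD, n = 4 libraries), followed by Junb at 54.3 ± 2.76, Atf3 at 42.2 ± 3.57, Jun at 18.7 ± 1.87 and Klf6 at 16.5 ± 0.830. Btg2 had 5.89 ± 1.18, Fos 5.10 ± 1.44, Maff 3.79 ± 0.607, Fosl2 1.79 ± 0.223 and Klf2 1.64 ± 0.583 FPKM. Jund, Junb and Atf3 did not overlap with their neighbours in this order over the 4 libraries. Over all 4 libraries the ranges of Jun and Klf6 overlapped, as did those of Btg2 and Fos, of Fos and Maff, and of Fosl2 and Klf2. Within the groups, Fos lay above Maff in both control libraries and below it in both knockdown libraries, and Klf2 lay above Fosl2 in the controls and below it in the knockdown libraries. Jun lay above Klf6 in the controls and overlapped with it in the knockdown libraries, while Btg2 overlapped with Fos in the controls and lay above it in the knockdown libraries. A day into LPS, Jund, Junb and Atf3 thus stood highest of the 10 and Fos was among the lower members.

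Of the 10 members 0 passed the test between knockdown and control (edgeR's quasi-likelihood test, Benjamini-Hochberg adjusted p of 0.05 over all genes), against 0.953% of all genes tested, 0.407% higher and 0.547% lower. DESeq2 called 1 of them, Fos, against 5.22% of the genes it tested. At an unadjusted p of 0.05, 4 members passed in edgeR, 3 lower (Fos, Btg2 and Klf2) and 1 higher (Maff), where 14.2% of all genes passed, 6.7% lower and 7.52% higher. The CPM of the groups did not overlap for 7 members, 5 lower and 2 higher, beside 47.6% of all genes, 23.8% in each direction. Their median log2 fold change was -0.09 over the members and -0.01 over all genes. The median size of a change without its sign was 0.22 and 0.21, so by this median the members moved about as far as the typical gene. The median SE was 0.13 over the members and 0.17 over all genes, so these sizes do not carry the same error.

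**Figure D1:**
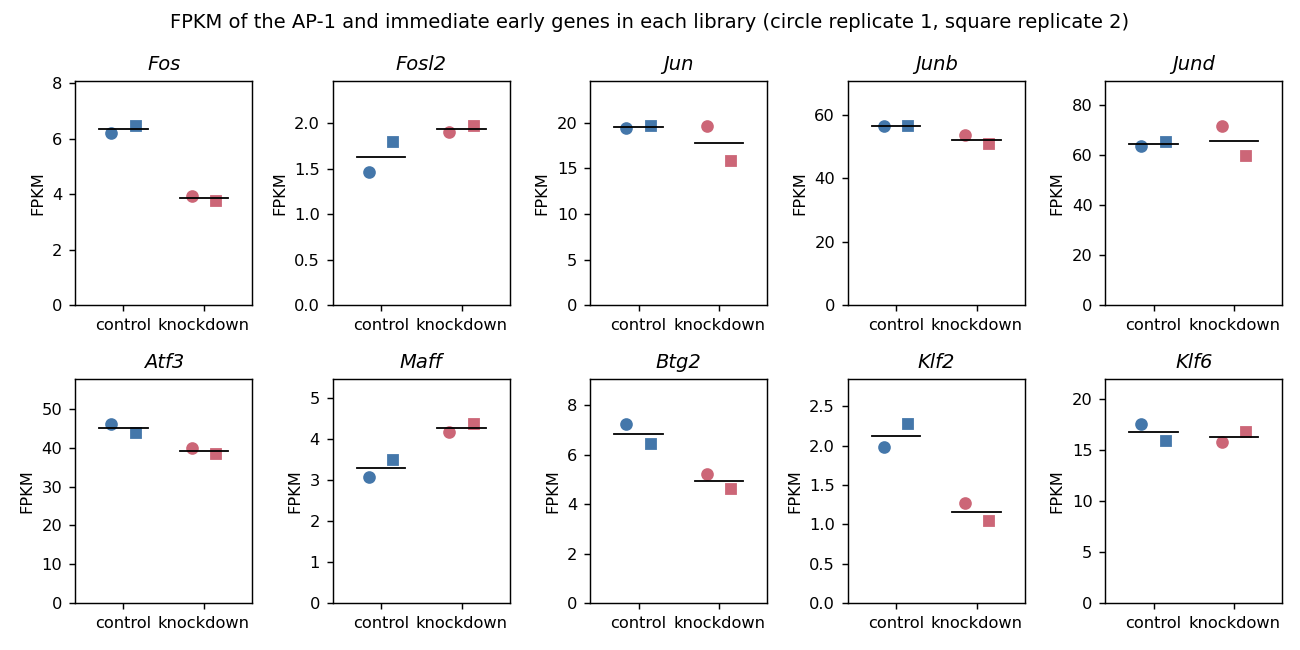
FPKM of each of the 10 genes (y axes, each from 0) in the control and knockdown libraries; points are libraries (circle replicate 1, square replicate 2) and bars are group means. Fos, Btg2 and Klf2 sit lower and Maff and Fosl2 higher in both knockdown libraries, while for Jun and Jund the knockdown libraries lie apart from each other.

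Fos encodes the c-Fos protein, the classical inducible partner in AP-1. It had 6.22 and 6.46 FPKM in the control libraries and 3.95 and 3.76 FPKM in the knockdown libraries. Both knockdown libraries were below both controls, and the gap between groups was much wider than that between replicates. In counts this was 1237 and 1030 against 776 and 635, and in TMM-scaled CPM 16.4 ± 0.310 against 10.3 ± 0.317 (SD, n = 2 each). The log2 fold change was -0.68 ± 0.14 (SE), a change of -37.6%, with a 95% interval from -1.003 to -0.36, an unadjusted p of 0.00166 and an adjusted p of 0.0942 by edgeR. DESeq2 gave a log2 fold change of -0.69 and an adjusted p of 0.00253, while over the other 15 settings the adjusted p ran from 0.0591 to 0.347. The lower Fos level lies beside the lower summed trace of neuronal and glial markers in the knockdown libraries given above, whose part in it was not tested.

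Fosl2 encodes Fra-2, a Fos protein that lacks the strong activation domain of c-Fos and is induced more slowly. It had 1.47 and 1.80 FPKM in control and 1.90 and 1.97 FPKM in knockdown libraries. The knockdown values were higher, but control replicate 2 lay closer to them than to control replicate 1. Its log2 fold change was 0.28 ± 0.14 (SE; 95% interval -0.05 to 0.62, edgeR adjusted p = 0.438), and it was 0.15 without control replicate 1 and 0.43 without control replicate 2. The Fos to Fosl2 ratio of FPKM was 4.24 and 3.59 in control and 2.08 and 1.91 in knockdown libraries, and these groups did not overlap. With 2 libraries a group a two-sided exact permutation test of a single value cannot go below p = 0.333, so ratios and shares are given without a test. The ratios and the Fos family shares were chosen after the values were seen.

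Within the Fos family the make-up of the transcript pool differed accordingly. Fos held 53.8% and 55.2% of the summed FPKM of Fos, Fosb, Fosl1 and Fosl2 in the control libraries and 31.7% and 37.4% in the knockdown libraries. Fosl1, which encodes Fra-1, held 32.6% and 29.1%, then 52.4% and 42.0%, and was the largest part in both knockdown libraries. Fosl2 held 12.7% and 15.4%, then 15.3% and 19.6%, and its groups overlapped. Fosb never held more than 1.03%.

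**Figure D2:**
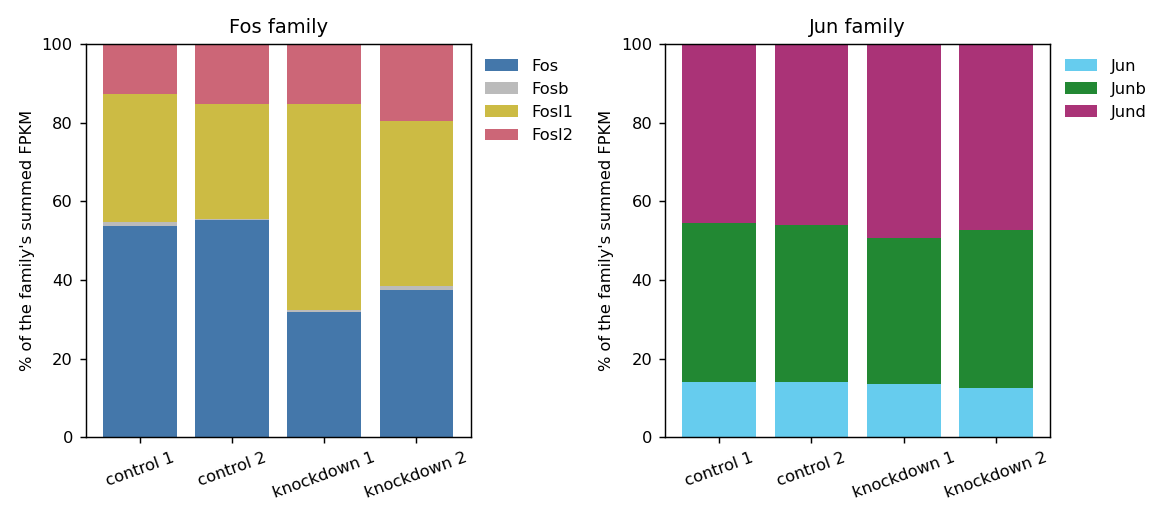
Share of the summed FPKM of the Fos family (left) and of the Jun family (right) held by each gene in each library (y axis, percent; 1 stacked bar per library). Fos held 53.8% and 55.2% in the control libraries and 31.7% and 37.4% in the knockdown libraries, while the Jun family bars differ less.

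Jun, Junb and Jund encode the Jun proteins: c-Jun is the strong activator, JunB is induced with it and often restrains it, and JunD is expressed more steadily. Junb had 56.4 and 56.5 FPKM in control and 53.6 and 50.7 FPKM in knockdown libraries. Its knockdown values were both lower, by a small margin, with a log2 fold change of -0.08 ± 0.08 (SE; 95% interval -0.26 to 0.10, edgeR adjusted p = 0.707), and -0.040 without knockdown replicate 2. Jun had 19.4 and 19.7, then 19.7 and 15.9 FPKM, so the groups overlapped and knockdown replicate 2 alone was low. Its log2 fold change was -0.10 ± 0.11 (SE; 95% interval -0.37 to 0.17, edgeR adjusted p = 0.757), and 0.045 without knockdown replicate 2. Jund had 63.5 and 65.0, then 71.6 and 59.7 FPKM, with the knockdown libraries on either side of the controls. Its log2 fold change was 0.07 ± 0.10 (SE; 95% interval -0.17 to 0.30, edgeR adjusted p = 0.835), and -0.070 without knockdown replicate 1. These intervals leave room for changes of either sign in all 3 genes.

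The make-up of the Jun family differed less. Jund held 45.8% ± 0.343 of its summed FPKM in control and 48.4% ± 1.498 in knockdown libraries (SD, n = 2 each), Junb 40.2% ± 0.330 and 38.6% ± 2.22, and Jun 13.9% ± 0.0130 and 13.1% ± 0.726. The Jund share was higher in both knockdown libraries than in both controls, by 2.54 percentage points on average and by 1.49 without knockdown replicate 1. Fos stood at 0.321 and 0.329 of the Jun level in control libraries and 0.201 and 0.237 in knockdown libraries, on the FPKM scale. Both Jun and Jund have an antisense gene over them, Junos and Gm11175, and no source used here says whether strand entered the counting. Junos counts were 106 and 71 (control), then 21 and 59 (knockdown), and those of Gm11175 0 and 16, then 0 and 4. Jun itself had 3615 to 5222 counts and Jund 7120 to 9935.

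Atf3 encodes a stress-induced bZIP repressor that limits cytokine transcription in LPS-treated macrophages. It had 46.3 and 43.8 FPKM in control and 40.1 and 38.4 FPKM in knockdown libraries. Both knockdown libraries were lower, and the log2 fold change was -0.16 ± 0.08 (SE; 95% interval -0.35 to 0.02, edgeR adjusted p = 0.422). Maff encodes a small Maf protein, which has the DNA-binding zipper but no activation domain and pairs with NRF2 and related factors. It had 3.08 and 3.50 FPKM in control and 4.19 and 4.38 FPKM in knockdown libraries, higher in both. In TMM-scaled CPM this was 9.40 ± 0.775 against 12.5 ± 0.441 (SD, n = 2 each), a log2 fold change of 0.42 ± 0.15 (SE), 33.5% higher, with a 95% interval from 0.05 to 0.78 (edgeR unadjusted p = 0.0315, adjusted p = 0.291). Maff was the member with the largest change upward, and Fosl2 the next.

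Btg2 encodes an antiproliferative protein that recruits the mRNA deadenylation machinery and is a p53 and growth factor target. It had 7.26 and 6.44 FPKM in control and 5.23 and 4.63 FPKM in knockdown libraries. The groups did not overlap, and the log2 fold change was -0.44 ± 0.14 (SE), a change of -26.3% (95% interval -0.77 to -0.11, edgeR unadjusted p = 0.0163, adjusted p = 0.234). Klf2 encodes a zinc finger factor tied to quiescence and to restraint of inflammatory genes in myeloid and endothelial cells. It had 1.98 and 2.28 FPKM in control and 1.27 and 1.04 FPKM in knockdown libraries, from 308 and 285 against 196 and 138 counts. Both knockdown libraries were lower, and this was the largest fold of the 10: a log2 fold change of -0.84 ± 0.28 (SE), a change of -44.1%, with a 95% interval from -1.52 to -0.16 (edgeR unadjusted p = 0.0220, adjusted p = 0.258). Klf6 encodes a KLF factor that promotes inflammatory gene expression in macrophages. It had 17.6 and 15.9, then 15.8 and 16.7 FPKM, fully overlapping, with a log2 fold change of -0.01 ± 0.09 (SE; 95% interval -0.22 to 0.21, edgeR adjusted p = 0.988). Klf2 and Klf6 thus had different values under the same knockdown, but their intervals overlap and the difference between them was not tested.

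**Figure D3:**
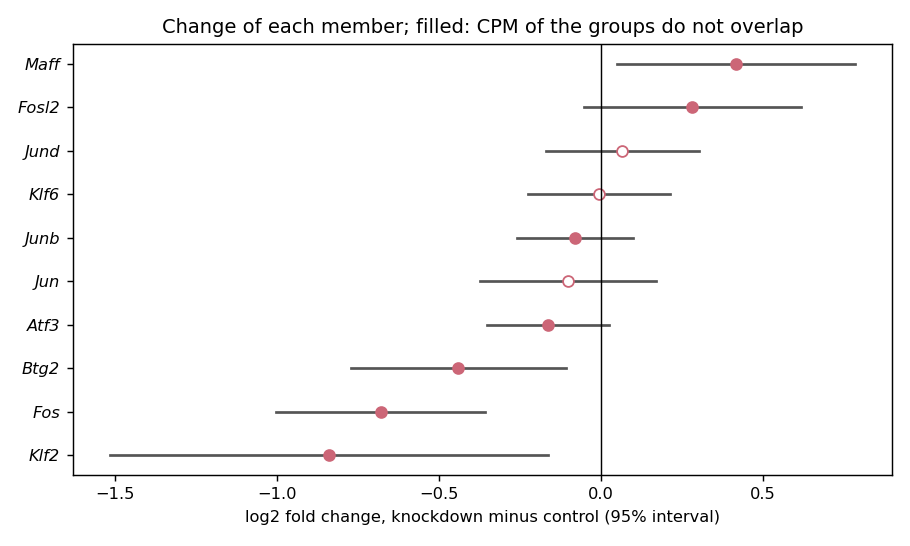
Log2 fold change of each gene, knockdown minus control (x axis), with its 95% interval from the edgeR fit; filled points are genes whose CPM did not overlap between groups. The intervals of Klf2, Fos, Btg2 and Maff leave out 0, and no gene passed the adjusted threshold.

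The 10 genes lie on 7 chromosomes (GRCm38, coordinates from the deposited table). Fos is at chr12:85473890-85477273 on the plus strand, Btg2 at chr1:134075170-134079120 on the minus strand, Klf2 at chr8:72319033-72321656 on the plus strand and Maff at chr15:79346621-79359076 on the plus strand. Fosl2 is at chr5:32135801-32157842 (plus), Jun at chr4:95049034-95052222 (minus), Jund at chr8:70698949-70700616 (plus), Junb at chr8:84976910-84978718 (minus), Atf3 at chr1:191170296-191218039 (minus) and Klf6 at chr13:5861482-5870394 (plus). Junb is the 1 member whose bounds in the deposited table differ from GENCODE M21, at its 3′ end.

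Promoters of such genes are known for short elements bound by proteins that are already present, among them the cyclic AMP response element (CRE), bound by CREB and ATF proteins. Windows of 300 bases around the RefSeq start (250 before, 50 after, GRCm38.p6) were searched on both strands for 9 motifs, with all 10 members matched in 12 windows, since Maff has 3 starts. The full CRE, TGACGTCA, was in 2 of the 10 members, Btg2 and Maff, and in 1.79% of all 32851 windows. The core TGACG, which the full CRE contains, was in 6 of the 10 (Fos, Btg2, Klf2, Maff, Junb and Atf3) and in 20.8% of all windows. TATAAA was in Fos, before the start, and in Junb, beginning on the start itself, and in 13.6% of all windows. GGGCGG was in 8 members and 35.7% of windows, CACCC in 7 and 57.5%, and the kappaB motif in 3 (Fos, Fosl2 and Maff) and 8.46%. A member was counted if any of its windows matched, while the shares are per window, which favours Maff with its 3 windows. All 250 bases before the Fosl2 start used lie in annotated exons, its kappaB match among them. The Jund start used, 70697739, lies before the deposited start, 70698949. The Atf3 start used, 191183333, lies well inside the deposited gene, and its match to the TGACG core lies in an annotated exon. The AP-1 site TGAGTCA, the CArG box and TGCTGAC, the core of the Maf site, were in none of the 12 windows, and in 5.2%, 1.63% and 4.67% of all windows. Bases more than 250 before the start and variants of these letters were not searched. The genes may therefore hold such sites that this search could not find.

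The bases before the start of the 4 genes at an unadjusted p of 0.05 are shown because they hold these elements (genes chosen after their values were seen), 5′ to 3′ on the gene's strand, from RefSeq (GRCm38.p6), with annotated exons left out. Capitals mark TGACGTCA, TGACG (either strand) and TATAAA. For Maff the second of its 3 starts is shown, chosen because it has the full CRE. The stretches are chr12:85473640-85473889 (Fos, plus), chr1:134079156-134079405 (Btg2, minus), chr8:72318812-72319032 (Klf2, plus) and chr15:79347270-79347519 (Maff, plus).
Fos: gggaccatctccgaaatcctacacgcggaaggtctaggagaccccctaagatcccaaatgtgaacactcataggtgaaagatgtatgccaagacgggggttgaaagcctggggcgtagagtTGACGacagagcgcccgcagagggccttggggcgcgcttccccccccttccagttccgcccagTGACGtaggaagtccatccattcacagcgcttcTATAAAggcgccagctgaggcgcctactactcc
Btg2: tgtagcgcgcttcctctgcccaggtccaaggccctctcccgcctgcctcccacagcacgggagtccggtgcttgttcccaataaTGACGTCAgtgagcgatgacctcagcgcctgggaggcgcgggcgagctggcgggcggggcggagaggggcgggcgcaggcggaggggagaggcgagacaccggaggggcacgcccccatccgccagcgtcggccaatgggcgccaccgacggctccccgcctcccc
Klf2: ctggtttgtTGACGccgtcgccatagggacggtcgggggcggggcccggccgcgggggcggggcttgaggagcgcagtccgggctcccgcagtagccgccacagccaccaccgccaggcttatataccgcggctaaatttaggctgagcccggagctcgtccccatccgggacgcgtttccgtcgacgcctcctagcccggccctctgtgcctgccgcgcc
Maff: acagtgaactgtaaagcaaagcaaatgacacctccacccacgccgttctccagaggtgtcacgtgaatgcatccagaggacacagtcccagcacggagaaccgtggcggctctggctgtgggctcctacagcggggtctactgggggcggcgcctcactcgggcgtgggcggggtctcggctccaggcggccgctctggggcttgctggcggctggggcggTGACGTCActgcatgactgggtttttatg
Fos carries 2 TGACG cores, at -129 and -66, and TATAAA at -33, counted back from the start, the base before it being -1. Btg2 has the full CRE at -166 and Maff at -29, and Klf2 TGACG at -241. Btg2, Klf2 and Fos were lower and Maff higher in knockdown libraries, and any link of the core to these values was not tested. Matches are letters in a window and say nothing of which proteins were bound.

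Genes listed beside the members, only some of them relatives by family, gave calls where the members did not. Of 114 further genes in 5 lists (bZIP relatives, other immediate early genes, KLF and BTG/TOB relatives, upstream kinases and factors, and classical AP-1 targets), 6 passed the edgeR test over all genes. Of the 5 described here, Maf and Btg1 fell, and Plk2, Zfp36l2 and Plau rose. The share called over all genes tested was 0.953%, while some of the 114 were too low to be tested, as given by list below. All 6 calls were lost without edgeR's robust option (adjusted p from 0.0634 to 0.105 for these 5 genes), and limma-voom kept only Plk2 (adjusted p = 0.0410). Without 1 library the log2 fold change ran from -0.86 to -0.66 for Maf and from -0.60 to -0.52 for Btg1. It ran from 0.62 to 0.68 for Plk2, from 0.48 to 0.66 for Zfp36l2 and from 0.66 to 0.76 for Plau. Of the 10 microglia and macrophage markers 3 fell, 0 rose and 7 did not pass, beside 0.547% of all genes called lower. Adgre1, Csf1r and Aif1 fell by 0.63, 0.48 and 1.04 on the log2 scale (edgeR adjusted p = 0.0198, 0.0426 and 0.0440), and whether this has a part in the lower Maf was not tested.

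**Figure D4:**
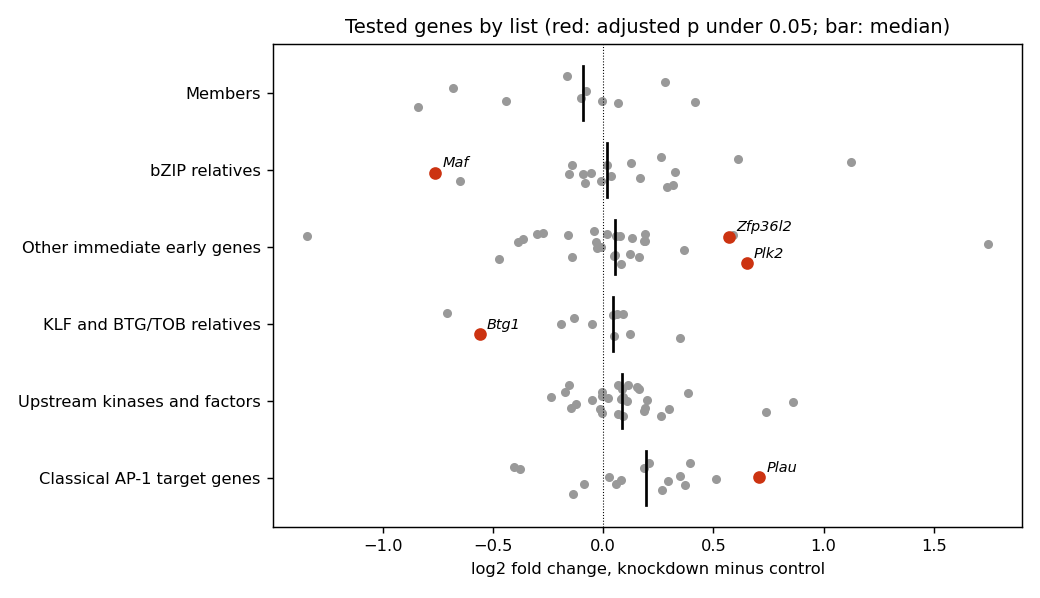
Log2 fold change, knockdown minus control (x axis), of the tested genes among the members and in each of 5 lists (rows), with 1 gene not drawn; red points passed an adjusted p of 0.05 in edgeR and black bars are medians. The 5 named genes passed, and no member did.

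Of 21 bZIP relatives 19 were tested, 2 fell and 17 did not pass, with a median log2 fold change of 0.02. Maf encodes a large Maf protein, which unlike Maff carries an activation domain and acts in macrophage identity. Maf had 65.9 and 75.6 CPM (control) and 40.1 and 43.4 CPM (knockdown), and fell by 0.76 ± 0.10 on the log2 scale (SE, edgeR adjusted p = 0.0304). The small Maf gene Maff, with 9.40 CPM (control) and 12.5 CPM (knockdown), lay on the other side of 0. The small Maf genes Mafg and Mafk lay below 0 like Maf, and are named here after their values were seen. Their log2 fold changes were -0.08 and -0.14 (edgeR adjusted p = 0.728 and 0.531). Batf, which pairs with Jun proteins, had 9.58 and 11.4, then 7.37 and 5.99 CPM, and Fosl1 8.51 and 7.62, then 14.9 and 9.70 CPM; neither passed (edgeR adjusted p = 0.216 and 0.302). Both knockdown values of Fosl1 lay above both controls, with replicate 1 well above replicate 2; its log2 fold change was 0.61, and 0.26 without knockdown replicate 1. Among the highest of the list by FPKM were Atf4 (107 ± 9.10 in control, 101 ± 22.1 in knockdown libraries, SD, n = 2 each) and Nfe2l2, which encodes NRF2 (30.0 ± 2.05 and 29.7 ± 0.471).

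Of 32 other immediate early genes 29 were tested, 2 rose, none fell and 27 did not pass, with a median log2 fold change of 0.05. Plk2, a polo-like kinase induced by growth signals, had 88.6 and 84.9 CPM (control) and 138 and 134 CPM (knockdown), a log2 fold change of 0.65 ± 0.08 (SE, edgeR adjusted p = 0.0183). Zfp36l2 encodes a protein that binds AU-rich elements and promotes mRNA decay. It had 105 CPM in both control libraries and 165 and 146 CPM in knockdown libraries, a log2 fold change of 0.57 ± 0.08 (SE, edgeR adjusted p = 0.0428). Its close relative Zfp36l1 lay in the other direction, with 68.4 and 61.1, then 51.3 and 47.9 CPM, and did not pass in edgeR (adjusted p = 0.151; 0.0253 by DESeq2). Gadd45b, a stress-response gene upstream of p38, had 50.3 ± 1.55 FPKM in control and 39.8 ± 3.77 FPKM in knockdown libraries (SD, n = 2 each; edgeR adjusted p = 0.223). Ier3 had 51.4 ± 5.21 and 49.2 ± 4.21 FPKM. Egr1, the immediate early gene most often measured with Fos, was counted 8 and 4 times in control, then 12 and 0 times in knockdown libraries, at or under the floor of 12 counts in each, and was chosen here after its values were seen.

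Of 12 KLF and BTG/TOB relatives 11 were tested, 1 fell and 10 did not pass. Btg1, the closest relative of Btg2, had 71.2 and 70.6 CPM (control) and 49.3 and 46.9 CPM (knockdown), and fell by 0.56 ± 0.08 on the log2 scale (SE, edgeR adjusted p = 0.0426). Btg2 had a log2 fold change of -0.44 with a larger error and did not pass. Btg3 had 10.2 ± 0.2205 and 10.6 ± 0.122 FPKM and Klf16 18.0 ± 1.93 and 18.3 ± 0.605 FPKM (SD, n = 2 each). Tob2, also antiproliferative, had 63.3 and 65.4, then 84.1 and 80.0 CPM (adjusted p = 0.132 by edgeR and 0.0132 by DESeq2), and Klf3 40.4 and 39.0, then 35.6 and 33.8 CPM (edgeR adjusted p = 0.450).

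All 29 upstream kinases and factors were tested and none passed in the main edgeR fit. In that fit 4 were higher and none lower at an unadjusted p of 0.05, where 7.52% and 6.7% of all genes were. Their median log2 fold change was 0.08. DESeq2, which called 5.22% of the genes it tested, called Elk3 and Map2k4 among those described in this list. Elk3, a ternary complex factor that sits with SRF on immediate early promoters and often represses them, had 21.5 and 17.2 CPM (control) and 37.2 and 33.2 CPM (knockdown). Its log2 fold change was 0.86 ± 0.14 (SE, edgeR adjusted p = 0.0604; 0.000136 by DESeq2). Elk3 also passed in edgeR without the filter on low counts, with the newer dispersion method and with counts divided by 4. It passed in none of the other settings. Map2k4, a kinase that activates JNK, had 45.7 and 43.0, then 55.1 and 60.9 CPM (adjusted p = 0.148 by edgeR and 0.0314 by DESeq2). Mapkapk2, the p38 effector kinase, was by far the highest of the list at 255 ± 6.43 and 261 ± 6.21 FPKM (SD, n = 2 each), followed by Rps6ka1 at 44.2 ± 1.44 and 45.9 ± 3.24 and Mapk3, which encodes ERK1, at 42.5 ± 1.16 and 38.1 ± 1.45.

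Of 20 classical AP-1 targets 16 were tested, 1 rose and 15 did not pass, with 0.19 as median log2 fold change and 12 of 16 values above 0. Plau encodes the urokinase protease. It had 24.8 and 24.3 CPM (control) and 41.5 and 38.7 CPM (knockdown), a log2 fold change of 0.71 ± 0.10 (SE, edgeR adjusted p = 0.0423). At an unadjusted p of 0.05, 7 of the 16 were higher and 1 lower, against 7.52% and 6.7% of all genes. Tnf had 64.3 and 57.2, then 75.8 and 79.0 CPM (adjusted p = 0.171 by edgeR and 0.0484 by DESeq2), and the metallothionein gene Mt2 174 and 192, then 218 and 257 CPM (adjusted p = 0.176 by edgeR and 0.0431 by DESeq2). Spp1, the osteopontin gene, had 1930 ± 123 and 1989 ± 200 FPKM and Mt1 359 ± 23.7 and 399 ± 23.4 FPKM (SD, n = 2 each). Mmp12, Mmp13, Timp1 and Nqo1 were too low to be tested.

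**Figure D5:**
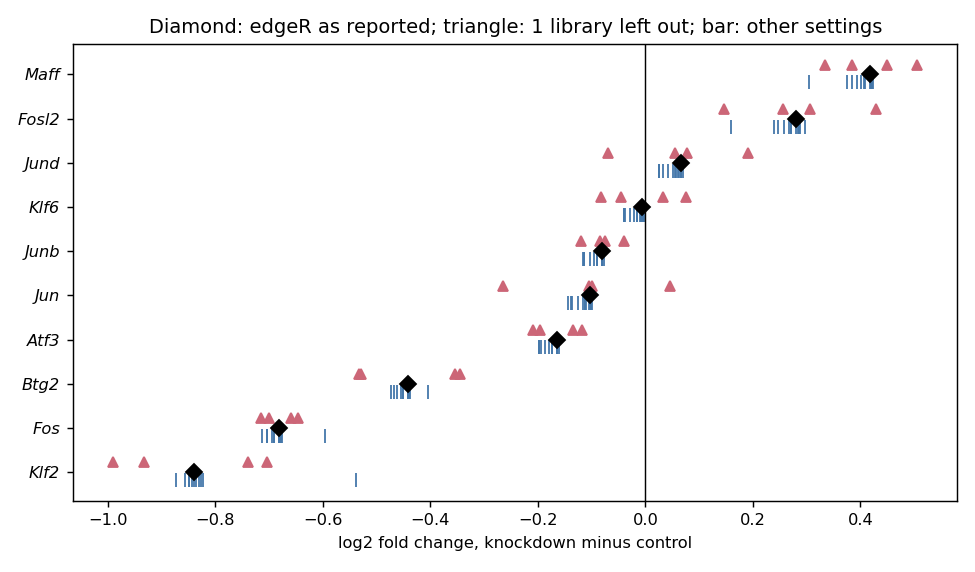
Log2 fold change of each gene, knockdown minus control (x axis), by edgeR as reported above (diamonds), with 1 library left out (triangles) and under the other settings (bars). Fos stayed between -0.72 and -0.60 and Maff between 0.30 and 0.51, while Jun, Jund and Klf6 changed sign when 1 library was left out.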

How the data were processed

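Oligo(dT)-selected RNA of 4 BV-2 libraries was sequenced paired-end with a dUTP method that marks strand, per the labels' protocols. The authors deposited estimated counts per Ensembl gene, as unnormalised whole numbers. Bowtie 0.12.2 and build mm8 stand in the submitters' processing notes, and what did the counting was not given in the sources used here. FPKM, so named per the file headers, are the authors' length-scaled and depth-scaled values. Of values up to 20, 42.1% to 47.2% were multiples of 4, so 1 fragment was taken as 4 counts. Gene coordinates were identical to GENCODE M21 (GRCm38) for 89.6% of 24422 genes, so that build is named. A further 12 columns match no labelled sample and were left unused.

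Counts of 55401 genes were fitted in R 4.3.3 with edgeR 4.0.16 (filterByExpr, TMM scaling, robust quasi-likelihood F test with the legacy dispersion method, two-sided). CPM are TMM-scaled except in the marker sums, which use library totals. SE and 95% intervals come from the fit. DESeq2 1.42.0 and limma 3.58.1 served as alternatives. Simulated counts of 15063 genes tested the fit: it found 22.4% of the genes given a 1.5-fold change, 71.6% at 2-fold and 98.5% at 4-fold, and 5 of its 133 calls were false.

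The members and gene lists were chosen with earlier results of these data known. From each list the text names every called gene, the 3 with the highest FPKM and the 2 uncalled genes with the lowest p, except 1 called gene that is not reported here, though it stays in the counts and medians. Of the other settings tried, 15 were chosen at the outset and 2 added after the data were seen: the newer edgeR dispersion method and counts divided by 4.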

Additional observations from a re-analysis of the deposited data

How the results depend on the processing

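The number of members called was 0 in every setting run except DESeq2, which called 1 (Fos). Of all genes, 150 were called by edgeR as described, 806 by DESeq2, 65 by limma-voom, 297 when low counts were not filtered, 7 at an adjusted p of 0.01, 7 without the robust option, and 3 by limma on either log2(FPKM + 1) or log2(FPKM + 0.1). Without 1 library the count ran from 41 (control replicate 2) to 112 (knockdown replicate 1), with 62 without control replicate 1 and 42 without knockdown replicate 2. Of the 114 listed genes 6 were called, against 13 by DESeq2, 1 by limma-voom, 0 at an adjusted p of 0.01, 0 without the robust option, 0 on either FPKM scale, and 0 to 1 without 1 library. The cause was not tested. With the replicate block, 0 of all genes, 0 listed genes and 0 members were called. Both this fit and those without 1 library have less left to estimate the spread from than the main fit. Fewer calls in them therefore do not by themselves show smaller changes. Nothing in the labels says whether same-numbered libraries were prepared together. The deviations of these libraries from their group means correlated at 0.049 across 15733 genes. The Jund share of the Jun family differed by 2.54 percentage points between groups, by 1.49 without knockdown replicate 1 and by 3.60 without knockdown replicate 2.

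Fos, Fosl2, Junb, Atf3, Maff, Btg2 and Klf2 kept their sign in every setting run, though Klf2 could not be tested under the filter of 5 CPM in 2 libraries. Without 1 library the log2 fold change of Jun ran from -0.27 to 0.045, of Jund from -0.070 to 0.19, of Klf6 from -0.083 to 0.076 (0.033 without knockdown replicate 1), of Atf4 from -0.30 to 0.15 (0.040 without control replicate 1), of Ier3 from -0.13 to 0.088 (0.059 without knockdown replicate 2), of Nfe2l2 from -0.055 to 0.096, of Klf16 from -0.049 to 0.18 and of Spp1 from -0.027 to 0.18. Nfe2l2 was also -0.015 with library totals alone and with either FPKM scale, and -0.0040 with the 5 CPM filter.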
